A study of Mus musculus with 24 samples.

Results

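CXC chemokines are small secreted proteins that steer leukocytes and other cells by binding G protein-coupled receptors of the Cxcr family, and they are named for a single residue between the first pair of conserved cysteines. Cxcl1 and Cxcl2 bind Cxcr2 and draw neutrophils, Cxcl9 and Cxcl10 are interferon-induced ligands of Cxcr3 on activated T cells and NK cells, and Cxcl12 is the homeostatic ligand of Cxcr4 and of the scavenging receptor Ackr3. Cxcl13 draws B cells through Cxcr5, Cxcl16 is made as a membrane-bound protein that binds Cxcr6 and can be shed, and Cxcl14 is a tissue-expressed member whose receptor is less settled. The transcripts of these 8 ligands were chosen by gene symbol from the 56205 genes of a mouse liver RNA-seq count table, and all 8 were among the 17913 genes tested after a filter on low counts.

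Whole livers of C57BL/6J mice were collected after 20 weeks on a high-fat diet (FFD) or its control diet. The study's methods describe the diet as rich in palm oil, fructose and cholesterol, and the mice as young adults of both sexes at the start. There were 12 libraries per diet, planned as 6 mice per diet and sex, and no label gives the sex of a library. The mice carried no engineered allele and shared 1 strain, so the diet was the only planned difference besides sex.

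Each library held 14468418 to 22112552 counts on genes. Levels are given as CPM, the counts of a gene relative to the scaled library total, after TMM scaling, a scaling that sets most genes equal between libraries, and 3 counts corresponded to 0.118 to 0.306 CPM. TMM factors were 0.994 to 1.34 in high-fat libraries and 0.679 to 1.01 in controls, with the lowest factor and the lowest depth both in control replicate 10. The libraries fell into 2 sets that no label names. Replicates 1 to 6 of each diet held 2664 to 6285 counts of the X-inactivation transcript Xist and 0 of the Y-linked Ddx3y, and replicates 7 to 12 held at most 3 counts of Xist and 448 to 1016 of Ddx3y. These sets are called the Xist-high and Xist-low libraries (above and below 1000 counts), with 6 libraries per diet in each, and since they coincide with the replicate numbers, sex and anything else that went with those numbers cannot be told apart. The hepatocyte genes that define the tissue were abundant in every library, with 10 markers such as albumin summing to 41240 to 139400 CPM.

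Of the 8 ligands, 5 lie on chromosome 5 (GRCm38, GENCODE M21). Cxcl1 (5:90891241-90893115) and Cxcl2 (5:90903871-90905938) are neighbours on the plus strand, and Cxcl9 (5:92321347-92328079) and Cxcl10 (5:92346638-92348889) are neighbours on the minus strand. Cxcl13 lies further along at 5:95956951-95961068. Cxcl12 (6:117168535-117181367), Cxcl14 (13:56288643-56296551) and Cxcl16 (11:70453983-70459984) lie apart from these clusters.

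The 250 bases before the RefSeq start site of the ligands were searched on both strands for an NF-kappaB-type motif (GGG, any 3 bases, then TTCC). An interferon-stimulated response element (ISRE, written GAAA, any 2 bases, then GAAA) was searched for in the same way. Windows matched by symbol for 7 of the 8 ligands, all but Cxcl16. The windows with a match are shown because the ligands that share inducible promoter elements can then be set beside their diet responses. The sequences run 5′ to 3′ on the strand of the gene, from RefSeq on GRCm38.p6, with matched bases in capitals, and cover chr5:90890995-90891244 (Cxcl1), chr5:90903649-90903898 (Cxcl2), chr5:92348890-92349139 (Cxcl10) and chr13:56296552-56296801 (Cxcl14).
Cxcl1: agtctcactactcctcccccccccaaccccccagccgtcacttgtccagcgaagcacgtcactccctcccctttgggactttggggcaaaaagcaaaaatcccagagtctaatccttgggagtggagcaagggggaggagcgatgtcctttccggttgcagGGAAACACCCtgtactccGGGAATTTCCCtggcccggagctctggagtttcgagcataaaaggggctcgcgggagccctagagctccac
Cxcl2: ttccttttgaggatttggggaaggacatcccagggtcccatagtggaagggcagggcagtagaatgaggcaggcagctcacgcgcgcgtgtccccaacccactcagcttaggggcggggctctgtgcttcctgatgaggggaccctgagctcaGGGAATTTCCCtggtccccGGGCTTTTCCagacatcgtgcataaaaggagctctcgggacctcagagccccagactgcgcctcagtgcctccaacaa
Cxcl10: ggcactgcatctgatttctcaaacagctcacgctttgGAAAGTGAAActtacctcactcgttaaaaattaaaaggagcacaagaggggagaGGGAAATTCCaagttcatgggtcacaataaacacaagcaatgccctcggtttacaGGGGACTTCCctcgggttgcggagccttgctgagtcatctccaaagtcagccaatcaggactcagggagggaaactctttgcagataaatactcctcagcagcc
Cxcl14: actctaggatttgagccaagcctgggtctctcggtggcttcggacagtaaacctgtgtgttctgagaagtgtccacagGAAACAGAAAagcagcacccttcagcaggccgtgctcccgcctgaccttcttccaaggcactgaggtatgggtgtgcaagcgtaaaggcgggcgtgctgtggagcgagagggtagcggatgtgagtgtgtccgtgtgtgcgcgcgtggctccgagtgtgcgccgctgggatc

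The Cxcl1 window held GGGAATTTCC starting 71 bases before the start site, which overlaps its own reverse-strand match at 70 bases, and a further reverse-strand match at 89 bases. Cxcl2 carried the same GGGAATTTCC, starting at 97 bases and again matched on the other strand at 96 bases, with GGGCTTTTCC at 78 bases. Cxcl10 was the ligand with both motifs, holding GGGAAATTCC at 159 bases, GGGGACTTCC at 104 bases and the ISRE match GAAAGTGAAA at 213 bases. Cxcl14 held the ISRE match GAAACAGAAA at 172 bases and no NF-kappaB match. The windows of Cxcl9, Cxcl12 and Cxcl13 held neither set of letters. Among 32851 windows of this length, 4.65% held the NF-kappaB letters, 2.98% the ISRE letters and 0.11% both. A match describes the sequence and is not a measured binding site.

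On the high-fat diet, 4 of the 8 ligands passed the thresholds taken from the study's methods, an adjusted p of 0.01 or less with a log2 fold change beyond 0.5 in either direction, and all 4 were higher. Cxcl14 rose 4.22-fold, Cxcl16 2.97-fold, Cxcl10 2.38-fold and Cxcl9 1.70-fold (quasi-likelihood test of edgeR, Benjamini-Hochberg adjustment). Among all genes tested 13.2% were higher and 4.99% lower. No ligand was called lower by edgeR: at an unadjusted p under 0.05, Cxcl12 and Cxcl13 were lower, and DESeq2 also called 0 lower. The median log2 fold change of the 8 ligands was 1.05, against -0.03 over all genes tested. With library totals in place of TMM the latter median moved to 0.26, 21.4% of all genes were called higher and 1.26% lower, and 6 of the 8 ligands were called higher. In whole liver, fewer cells of a type and less RNA per cell cannot be told apart.

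**Figure D1:**
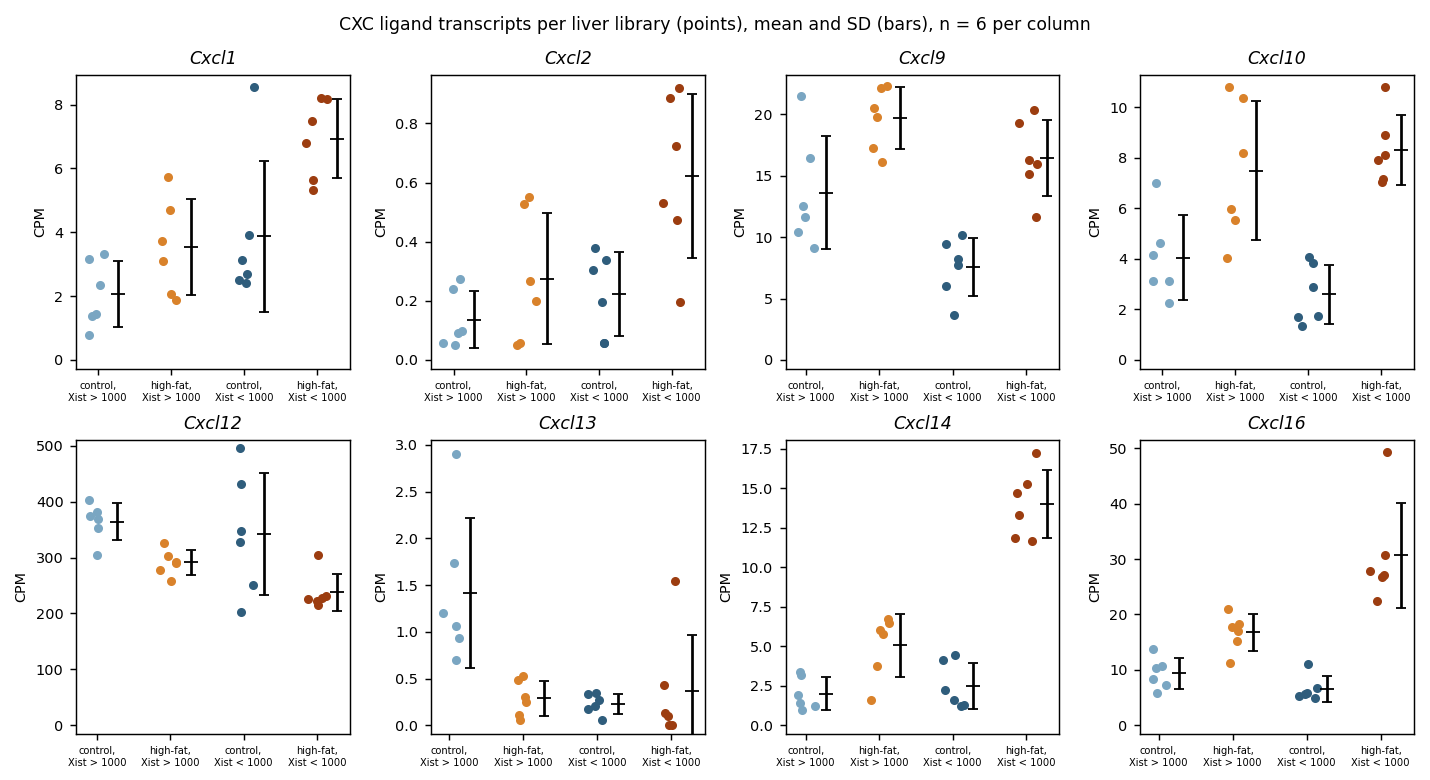
Level of each CXC ligand (y axis, CPM, linear from 0) in each of 24 liver libraries (points), by diet and library set on the x axis, with the mean and SD of 6 libraries beside each column. The 6 high-fat Xist-low libraries lie above their 6 controls for Cxcl9, Cxcl10, Cxcl14 and Cxcl16, and the 6 high-fat Xist-high libraries lie below theirs for Cxcl13.

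The ligands differed widely in abundance, and per kilobase of transcript Cxcl12 led in every library. On the control diet its median was 64.2 CPM per kilobase (range 36.0 to 88.1). The next 4 medians, in descending order, were 3.38 for Cxcl9, 2.72 for Cxcl1, 2.58 for Cxcl16 and 2.30 for Cxcl10, all in CPM per kilobase, and the ranges of these 4 overlapped. Cxcl14 had a median of 0.967, Cxcl13 of 0.452 and Cxcl2 of 0.0795 CPM per kilobase. On the high-fat diet the order below Cxcl12 (median 47.6 CPM per kilobase) changed to Cxcl16 at 8.04, Cxcl9 at 6.33, Cxcl10 at 5.92, Cxcl1 at 5.74 and Cxcl14 at 5.03, again with overlapping ranges. Cxcl2 (0.269) and Cxcl13 (0.167 CPM per kilobase) stayed the least abundant. Cxcl12 made up 81.0% ± 5.86 (SD, n = 12) of the summed per-length level of the 8 ligands in controls and 59.6% ± 8.40 (SD, n = 12) in high-fat libraries. The mean share of Cxcl16 was 3.86% in controls and 10.9% in high-fat libraries, and that of Cxcl14 was 1.57% and 6.47%.

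**Figure D2:**
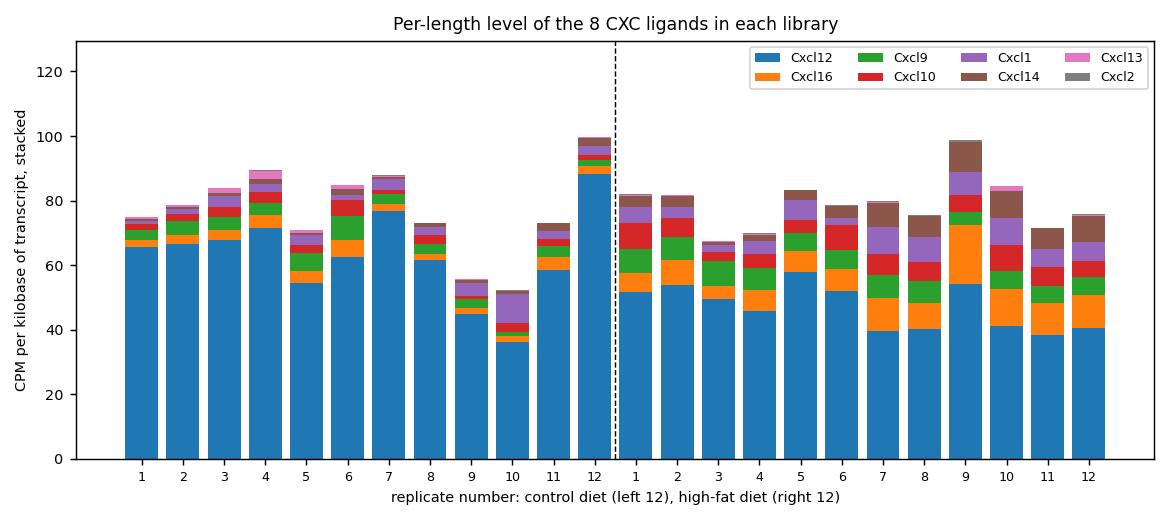
Per-length level of the 8 CXC ligands (y axis, CPM per kilobase of transcript, stacked) in each library, ordered by diet and replicate number on the x axis. Cxcl12 holds 69.1% to 88.4% of the bar in control libraries and 48.5% to 73.1% in high-fat libraries, and the segments of Cxcl16 and Cxcl14 are thickest in high-fat replicates 7 to 12.

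Cxcl16, the membrane-bound ligand of Cxcr6, showed the clearest separation between diets. High-fat libraries held 11.3 to 49.3 CPM (median 21.7) and control libraries 4.99 to 13.8 CPM (median 6.97). Of the 12 high-fat libraries, 11 lay above all controls, and only high-fat replicate 3 fell within their range. None of the 8 ligands separated the diets fully over all 24 libraries, against 1.48% of all genes that did so higher and 0.402% lower. The log2 fold change was 1.57 with a standard error (SE) of 0.21 (adjusted p = 3.71e-06, edgeR's quasi-likelihood test). Leaving out any single library gave log2 fold changes of 1.43 to 1.67, the lowest without high-fat replicate 9, which held the highest level. Exons of the gene share 552 bases with Zmynd15 on the opposite strand, and the strand setting of the counting is not given in the sources used here. Zmynd15 itself had a median of 209.5 counts in high-fat and 105 in control libraries, so reads from the shared bases cannot be assigned to either gene.

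Cxcl14, a chemokine made mainly by epithelial and stromal cells, had the largest fold change of the 8 ligands. Its levels were 1.60 to 17.3 CPM (median 9.19) in high-fat libraries and 0.939 to 4.47 CPM (median 1.77) in controls. All but 2 high-fat libraries lay above every control, with high-fat replicate 3 the lowest at 1.60 CPM. The log2 fold change was 2.08 (SE 0.33, adjusted p = 2.48e-05 in the same edgeR test).

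The interferon-induced pair Cxcl9 and Cxcl10, neighbours on chromosome 5, were both higher. Cxcl10 ran from 4.05 to 10.8 CPM (median 8.01) in high-fat libraries, against 1.32 to 7.01 CPM (median 3.12) in controls, and 9 high-fat libraries lay above all controls. Its log2 fold change was 1.25 (SE 0.22, adjusted p = 7.41e-05, edgeR), and its window is the one shown above with both motifs. Cxcl10 shares 133 exonic bases with Art3 on the opposite strand, whose median was 40.5 counts in high-fat and 34.5 in control libraries. Cxcl9 ran from 11.7 to 22.3 CPM (median 18.3) against 3.67 to 21.5 CPM (median 9.77), a log2 fold change of 0.76 (SE 0.18, adjusted p = 0.00184, edgeR). Every high-fat library exceeded the control median of Cxcl9, but its ranges overlapped far more than those of Cxcl10, and 2 high-fat libraries lay above all controls.

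Cxcl1 and Cxcl2, the neutrophil-directed ligands whose promoters share the GGGAATTTCC element, did not pass the thresholds. Cxcl1 ran from 1.87 to 8.21 CPM (median 5.47) in high-fat libraries, against 0.787 to 8.55 CPM (median 2.60) in controls. Its log2 fold change was 0.84 with a 95% interval of 0.24 to 1.45 (adjusted p = 0.0249, edgeR). The highest Cxcl1 level of all 24 libraries was in control replicate 10, and without that library the log2 fold change was 1.09 and the adjusted p 0.00172, past both thresholds. With the library set as a covariate Cxcl1 also passed, at 0.82 with an adjusted p of 0.00639. Cxcl2 was close to the detection limit, with 1 to 21 counts per high-fat library and 1 to 7 per control library. Its levels were 0.449 ± 0.300 CPM against 0.179 ± 0.124 CPM (SD, n = 12 each), a log2 fold change of 1.33 (95% interval 0.44 to 2.22, adjusted p = 0.0166, edgeR), and 7 high-fat libraries lay above all controls. Without high-fat replicate 2 or 5 it passed both thresholds, at 1.44 and 1.43 with adjusted p values of 0.00705 and 0.00726.

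Cxcl12, the most abundant ligand and the one that retains Cxcr4-bearing cells in tissue, had a negative estimate that did not reach the fold threshold. High-fat libraries held 215.0 to 325.5 CPM (median 268) and controls 202.7 to 495.9 CPM (median 361). All 12 high-fat libraries lay below the control median, and 9 control libraries lay above every high-fat library. The log2 fold change was -0.42 (95% interval -0.65 to -0.18, adjusted p = 0.00523, edgeR), an estimate of 1.34 times more on the control diet. This value depended on the scaling: with library totals alone it was -0.14 (adjusted p = 0.393). Hepatocyte markers moved in the same direction, with 7 of 10 called lower, against 4.99% of all genes, and a median log2 fold change of -0.66. Their part in the Cxcl12 difference was not tested.

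Cxcl13, the B cell-directed ligand of lymphoid follicles, was scarce. It had 0 to 39 counts per high-fat library (median 0.192 CPM) and 1 to 53 per control library (median 0.519 CPM). In controls it was lower in the Xist-low than in the Xist-high set (-2.59, adjusted p = 0.0194, edgeR). On the high-fat diet this set difference did not pass (0.40, adjusted p = 0.784, edgeR). Over all 24 libraries the log2 fold change was -1.31 (95% interval -2.53 to -0.09, adjusted p = 0.0802, edgeR). High-fat replicate 10 alone held the 39 counts. Without it the log2 fold change was -1.91 with an adjusted p of 0.0113, and without control replicate 4, which held the highest control level, it was -0.95.

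The diet was then compared within each library set, since the design holds both sexes. Within the 12 Xist-low libraries, the 6 high-fat and 6 control libraries did not overlap for Cxcl9, Cxcl10, Cxcl14 or Cxcl16, all higher on the high-fat diet, against 12.6% of all genes that were fully higher in this set and 9.66% fully lower. The same 4 ligands were called there by edgeR, against 14.3% of all genes called higher, with log2 fold changes of 1.13 for Cxcl9, 1.72 for Cxcl10, 2.49 for Cxcl14 and 2.24 for Cxcl16. Within the 12 Xist-high libraries, Cxcl16 alone was called higher, at 0.85 (adjusted p = 0.00888), where 2.91% of all genes were called higher. The estimates for Cxcl9 (0.54), Cxcl10 (0.89) and Cxcl14 (1.34) had adjusted p values of 0.0551, 0.0420 and 0.0202 in that edgeR fit. Among all genes 7.89% were called lower in the Xist-low set, and no ligand was by edgeR, where Cxcl12 was at -0.51 with an unadjusted p of 0.0184.

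**Figure D3:**
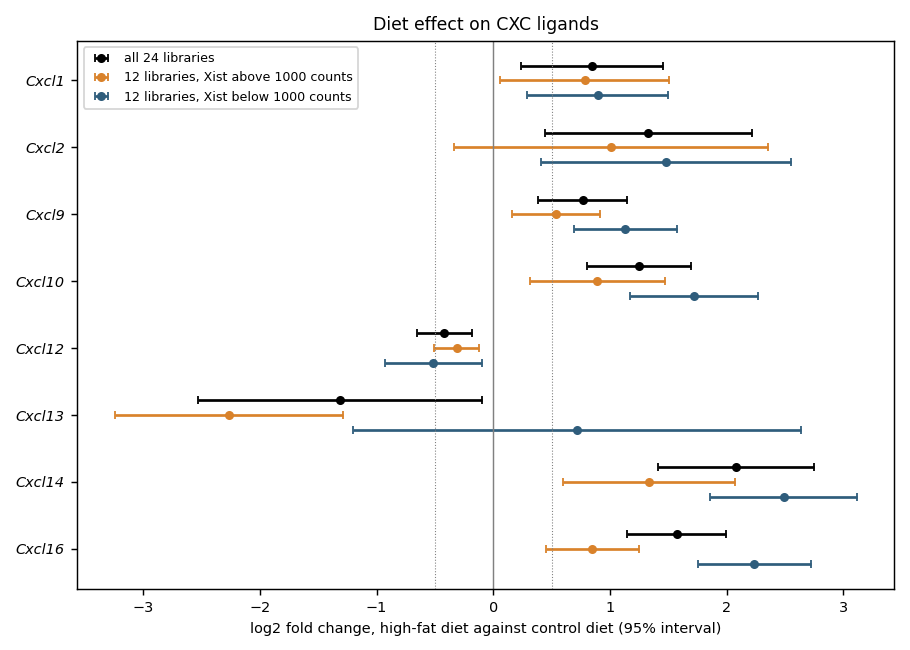
Log2 fold change between the high-fat and control diets (x axis) for each CXC ligand (y axis), with 95% intervals as bars, for all 24 libraries and for each library set. Dotted lines mark 0.5 and -0.5. The Xist-low estimate of Cxcl16 (2.24) lies clear of the Xist-high estimate (0.85), and Cxcl13 has estimates of opposite sign in the 2 sets.

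Whether the diet effect differed between the sets was tested with an interaction term, coded as the Xist-low minus the Xist-high log2 fold change. Of the 8 ligands, Cxcl16 was the one past an adjusted p of 0.05, with a difference of 1.37 (SE 0.31, adjusted p = 0.00493, edgeR), where 6.18% of all genes had a positive difference and 4.04% a negative one. Cxcl16 rose from 9.37 ± 2.86 to 16.8 ± 3.29 CPM in the Xist-high libraries and from 6.57 ± 2.30 to 30.7 ± 9.51 CPM in the Xist-low libraries (SD, n = 6 each). Without high-fat replicate 9, which held 49.3 CPM, the difference was 1.16. The overlapping gene Zmynd15 averaged 6.46 and 9.16 CPM in the Xist-high controls and high-fat libraries, and 5.85 and 13.4 CPM in the Xist-low ones. The part of the shared bases in the Cxcl16 difference was not tested. For Cxcl14 the difference was 1.15 (95% interval 0.16 to 2.13, adjusted p = 0.136), for Cxcl10 0.82 (0.0042 to 1.63, adjusted p = 0.206) and for Cxcl9 0.58 (-0.0048 to 1.16, adjusted p = 0.213), so these were not shown to differ between sets. With library totals in place of TMM, Cxcl9, Cxcl10, Cxcl13 and Cxcl14 also passed, but so did 16.5% of all genes with a positive difference and 1.47% with a negative one. For Cxcl1 and Cxcl2 the intervals ran from -0.87 to 1.08 and from -1.28 to 2.21.

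Cxcl13 was the ligand with a fall in 1 set. In the Xist-high libraries control libraries held 14 to 53 counts and high-fat libraries 1 to 10, so the groups did not overlap, which held for 2.39% of all genes in this direction and 3.51% in the other. The log2 fold change there was -2.27 (SE 0.46, adjusted p = 0.00549, edgeR), where 0.896% of all genes were called lower. In the Xist-low libraries the control libraries already held only 1 to 6 counts, and the high-fat libraries 0 to 39, a log2 fold change of 0.72 with a 95% interval of -1.20 to 2.63. The difference between sets was 2.98 (SE 1.03, adjusted p = 0.0653), and without high-fat replicate 10 it was 1.49 (adjusted p = 0.367), while without high-fat replicate 8 or 9 it passed at 3.19 and 3.22. Of 6 B cell markers the lowest adjusted p over all 24 libraries was 0.222 (Cd79b, 0.46), and their summed level ran from 4.04 to 11.6 CPM in the Xist-high controls and from 2.80 to 10.1 CPM in the Xist-high high-fat libraries. In the Xist-low set the B cell sums did not overlap, at 2.75 to 4.87 CPM in controls and 6.14 to 13.1 CPM in high-fat libraries. Among single genes, 12.6% were fully higher in that set and 9.66% fully lower. Over all 24 libraries the difference between sets of Cxcl13 was positive but did not pass an adjusted p of 0.05. For 2 of the 6 markers a positive difference passed it, against 6.18% of all genes. These were Cd79a (1.71, adjusted p = 0.0306) and Fcmr (1.91, adjusted p = 0.0190, edgeR), and the median difference of the 6 was 1.51. The part of the B cell markers in the Cxcl13 difference was not tested.

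The sets also differed within a diet. In the control libraries Cxcl9 was lower in the Xist-low than in the Xist-high set by a log2 difference of -0.84 (adjusted p = 0.00693, edgeR), at 7.55 ± 2.37 against 13.6 ± 4.60 CPM (SD, n = 6 each). Among all genes 4.61% were higher and 6.5% lower at an adjusted p of 0.05. Control Cxcl13 was lower there by -2.59 (adjusted p = 0.0194). On the high-fat diet the pattern changed to Cxcl14 (1.47, adjusted p = 0.00281), Cxcl16 (0.87, adjusted p = 0.00599) and Cxcl1 (0.97, adjusted p = 0.0408), each higher in the Xist-low set, against 7.64% of all genes higher and 7.93% lower. Cxcl14 then ran from 11.7 to 17.3 CPM in the Xist-low and from 1.60 to 6.72 CPM in the Xist-high libraries, so these ranges did not overlap, as was the case for 4.71% of all genes in this direction and 5.82% in the other.

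Ligands that vary together from liver to liver were sought after the mean of each diet and set had been subtracted from log2(CPM + 1), over all 28 pairs of the 8 ligands and 7 pairs of a ligand and its receptor. Of these 35 pairs, Cxcl14 and Cxcl16 were the one pair past an adjusted p of 0.05 (Pearson r = 0.70, permutation p = 2e-04, adjusted p = 0.007; Spearman rho = 0.71, permutation p = 0.00042, adjusted p = 0.0147; 24 libraries, 100000 resamples, two-sided). Without high-fat replicates 9 and 10, the 2 libraries farthest from the median of Cxcl14, r was 0.73 (permutation p = 0.0012, adjusted p = 0.042). Within the Xist-high libraries r was 0.72, within the Xist-low libraries 0.70, within the high-fat libraries 0.71 and within the controls 0.70. No ligand correlated with its own receptor past the threshold, and Cxcl16 with Cxcr6 gave r = 0.44 (adjusted permutation p = 0.44).

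**Figure D4:**
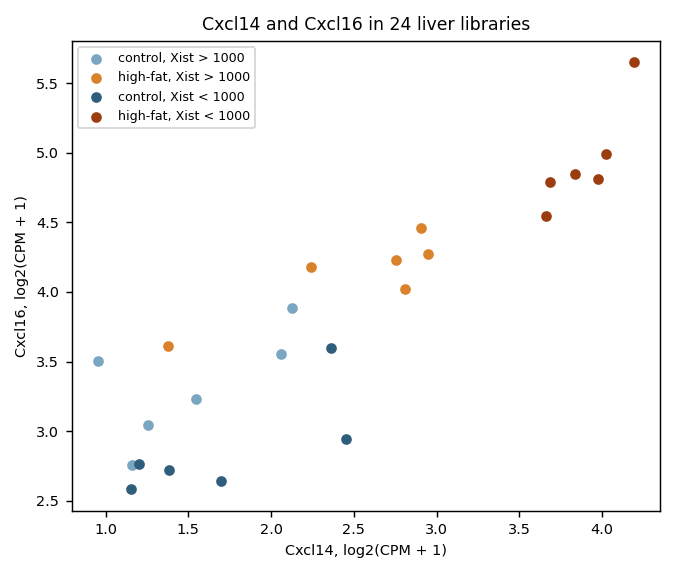
Cxcl16 (y axis) against Cxcl14 (x axis), both as log2(CPM + 1), with 1 point per library coloured by diet and library set. The high-fat Xist-low libraries sit at the upper right, apart from all other libraries, and within the libraries as a whole the deviations from the mean of each diet and set had r = 0.70.

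The rest of the CXC family was examined from a fixed list of 7 further ligands. Of these, 4 could be tested and 2 were called higher, against 13.2% of all genes. Cxcl5 is a neutrophil attractant that like Cxcl1 and Cxcl2 binds Cxcr2. It held 3 to 30 counts in each high-fat library and 0 to 2 in each control library, with 8 control libraries at 0. Cxcl5 thus showed no overlap between diets, as did 1.48% of all genes in this direction. Its 12 high-fat libraries alone met the filter of at least 1 count in 12 libraries, so its change is given as a description. Its mean was 0.653 ± 0.307 CPM against 0.0318 ± 0.0498 CPM (SD, n = 12 each; log2 fold change 4.24, SE 0.50, adjusted p = 1.07e-06, edgeR), so the control level rests on a few counts. Pf4, the platelet chemokine, rose by a log2 fold change of 1.84 (adjusted p = 2.24e-05). Ppbp, also stored in platelets, was at 1.28 (adjusted p = 0.0849), but high-fat replicate 3 alone held 110 of its 199 high-fat counts, and without that library the value was 0.20 (adjusted p = 0.734). Cxcl11, the third ligand of Cxcr3 and annotated as a polymorphic pseudogene, was at -0.04 (95% interval -0.41 to 0.32) and shares its exons with the pseudogene Gm2673 on the other strand. Cxcl3, Cxcl15 and Cxcl17 were left out by the filter, with 6 counts of Cxcl3 over 3 high-fat libraries and 0 in controls, 0 of Cxcl15, and 4 of Cxcl17 in 1 high-fat library. The window of Cxcl3 also held GGGAATTTCC, starting 73 bases before the start site, as those of Cxcl1 and Cxcl2 did.

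Of 8 receptors of these ligands, 3 were called higher by edgeR, against 13.2% of all genes, and all 8 estimates were above 0, with a median log2 fold change of 1.15. With library totals in place of TMM 6 of the 8 were called, against 21.4% of all genes, Cxcr1, Cxcr2 and Cxcr3 being the added ones (adjusted p = 0.00476, 0.00539 and 0.00848). Cxcr4, the receptor of Cxcl12, ran from 1.74 to 4.78 CPM in high-fat libraries, against 0.102 to 1.66 CPM in controls. The ranges did not overlap, as was the case for 1.48% of all genes in this direction. The log2 fold change of Cxcr4 was 2.05 (adjusted p = 2.82e-05, edgeR), while Cxcl12 was not called. The scavenging receptors Ackr1 and Ackr3 rose by 1.07 and 1.23, though Ackr1 shares 361 exonic bases with Cadm3. Cxcr1 (2.05, adjusted p = 0.0124) and Cxcr2 (1.66, adjusted p = 0.0132) did not pass with TMM and were at or under 15 counts per library. Cxcr3, the receptor of Cxcl9 and Cxcl10, was at 0.83 (adjusted p = 0.0297), and Cxcr6, the receptor of Cxcl16, at 0.42 (adjusted p = 0.296). Both differed between the sets in the direction that Cxcl16 did, by 1.90 for Cxcr3 (adjusted p = 0.00906) and 2.21 for Cxcr6 (adjusted p = 0.00352). In controls Cxcr3 and Cxcr6 were lower in the Xist-low set, by -1.54 (adjusted p = 0.00344) and -1.50 (adjusted p = 0.00434, edgeR). On the high-fat diet their set differences did not pass (0.36 and 0.71). The set difference of Cxcl16 passed on the high-fat diet (0.87) and not in controls (-0.50). In the Xist-low set Cxcr6 stood at 0.329 to 0.611 CPM in controls and 0.354 to 2.66 CPM in high-fat libraries, whereas in the Xist-high set the estimate was -0.52 (adjusted p = 0.221). Cxcr5, the receptor of Cxcl13, was at 0.49 (95% interval -0.26 to 1.23).

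**Figure D5:**
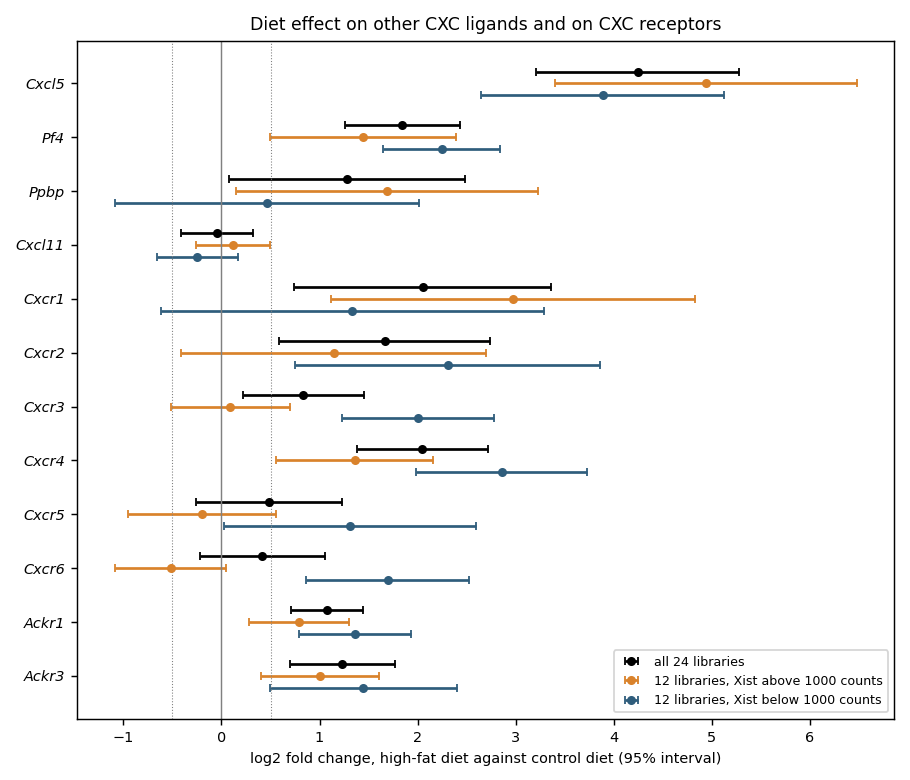
Log2 fold change between diets (x axis) with 95% intervals for the other CXC ligands that could be tested and for the CXC receptors (y axis), over all 24 libraries and within each set. Cxcl5 has the largest estimate (4.24) and met the filter on low counts through its high-fat libraries. The Xist-low estimate of Cxcr6 (1.69) lies above its Xist-high estimate (-0.52).

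Genes of signalling pathways, ligand cleavage and lymphoid organisation moved unevenly, and the counts that follow stand against 13.2% of all genes called higher. Of 10 genes of NF-kappaB signalling, 7 were called higher, from Il1a (0.92) to Tnf (2.09, 0.843 ± 0.414 against 0.191 ± 0.106 CPM, SD, n = 12 each), with a median log2 fold change of 1.10. Of 7 testable genes of interferon-gamma signalling, 3 were called higher, from the receptor chain Ifngr1 (0.66) to the feedback inhibitor Socs1 (1.07). The transcription factor Irf1 (0.33, adjusted p = 0.00683) did not pass the fold threshold. Ifng itself averaged 0.0520 CPM in high-fat and 0.0217 CPM in control libraries and was not tested. Among 5 proteases that cleave CXC ligands, Mmp8 was the one called (3.02, at 0.642 ± 1.18 against 0.0684 ± 0.0720 CPM, SD, n = 12 each), a share near that of all genes, and without high-fat replicate 3 its value was 1.997. Adam10 (0.16) and Adam17 (0.30), sheddases of Cxcl16, were not called, nor was Dpp4 (-0.33, adjusted p = 0.0137), which trims Cxcl9, Cxcl10 and Cxcl12. Of 6 testable genes of lymphoid tissue organisation, 4 were called higher, from Ccl19 (0.91) to Tnfrsf11a (1.80), while Cxcl13 was not. With library totals, against 21.4% of all genes, the counts called higher were 9 of 10 for NF-kappaB, 5 of 7 for interferon-gamma, 2 of 5 for the proteases and 4 of 6 for lymphoid organisation.

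Markers of the cells that these ligands attract or that may make them changed to different degrees, and their part in the ligand differences was not tested. With TMM, the counts called stand against 13.2% of all genes called higher and 4.99% called lower. Macrophage markers were called higher for 8 of 12, from Csf1r (0.998) to Gpnmb (5.49), with a summed level of 990 to 2093 CPM in high-fat libraries against 223 to 898 CPM in controls. Those not called were Clec4f (0.20), Vsig4 (0.38), Timd4 (-0.74) and Marco (0.88, or -0.49 without high-fat replicate 3). Spp1 is counted both here and among the cholangiocyte markers. Of the 12 macrophage markers, 8 had a positive difference between sets at an adjusted p of 0.05, as did Cxcl16, against 6.18% of all genes. Such differences were not particular to macrophages: they were found for 5 of 10 NF-kappaB genes, 4 of 8 T cell, 2 of 5 NK cell, 2 of 6 B cell, 2 of 6 cholangiocyte and 3 of 12 stellate markers. Neutrophil markers were called higher for 6 of 7 tested, from Csf3r (1.58) to S100a8 (4.28), at 6.49 to 171 CPM against 1.84 to 7.43 CPM, while Ly6g was too low to test. High-fat replicate 3 made the upper end, with 1242 of the 1464 high-fat counts of S100a8. Without it the sum was 6.49 to 15.3 CPM on the high-fat diet, 5 of 7 markers were called, S100a8 was at 1.55 and Csf3r at 1.56, and the median of the list fell from 2.93 to 1.55. T cell markers had a median of 0.66 and a lowest adjusted p of 0.0140 (Trbc2, 0.80) among 8, at 3.18 to 12.1 CPM against 3.16 to 11.9 CPM. The 4 T cell markers with a difference between sets, in the direction of Cxcr3 and Cxcr6, included Cd8a (3.62, adjusted p = 0.00795) and Cd8b1 (3.87, adjusted p = 0.0117), and the NK cell markers were Ncr1 (4.28, adjusted p = 0.00731) and Eomes (5.41, adjusted p = 0.0208). NK cell markers were called higher for 1 of 5 tested (Eomes, 2.88, from 0.0357 to 0.313 CPM), a share near that of all genes. Stellate cell and fibroblast markers were higher for 7 of 12, from Colec11 (0.56) to Col1a1 (3.12), at 525 to 1023 CPM against 227 to 539 CPM. Cholangiocyte markers were higher for 5 of 6, from Cldn7 (2.18) to Krt19 (2.72), and endothelial markers for 2 of 8, Stab2 (0.57) and Vwf (0.90), neither of which was called without high-fat replicate 3. Hepatocyte markers were lower for 7 of 10, from Fga (-0.56) to Tat (-1.33), at 41240 to 100300 CPM against 89810 to 139400 CPM. With library totals in place of TMM, where 21.4% of all genes were higher and 1.26% lower, 2 of the 10 hepatocyte markers were called lower, and 9 of the 12 stellate, 4 of the 8 endothelial, 7 of the 7 neutrophil and 1 of the 8 T cell markers higher. The counts of macrophage, cholangiocyte, B cell and NK cell markers were as with TMM.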

How the data were processed

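Poly(A)-selected RNA of whole liver was sequenced. The authors deposited raw counts per Ensembl gene, without normalization. The submitters' processing notes name bcl2fastq, STAR 2.7.3a and mm10; the study's methods name a stranded library kit without naming the mouse libraries and, for reads aligned to the human genome, the exon quantification pipeline and PISCES. For the mouse libraries the counting program, annotation and strand setting are not given in the sources used here. Symbols and coordinates came from GENCODE M21 (51745 of 56205 IDs; the others held 0.0723% of counts). Lengths are of the longest coding transcript.

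Genes counted at least once in 12 or more libraries (6 within a set of 12) were fitted with edgeR 4.0.16 in R 4.3.3 (TMM, quasi-likelihood, diet as the only term, Benjamini-Hochberg over all genes tested). The methods' thresholds were used. Standard errors were derived from the log2 fold change and its F statistic. Scripts were tested on simulated data. Interactions used diet, set and their product. Alternatives were DESeq2 1.42.0, limma-voom (limma 3.58.1), other scaling, filters and thresholds, the replicate block, the set as covariate and each library left out. Correlations without control replicate 10, gene lists without high-fat replicate 3, and interactions with each library left out were added after seeing the data.

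The ligands, the lists and the split by Xist were chosen with earlier results of these data known. Named genes were the ligands, the CXC ligands and receptors, the called genes with the largest and smallest change of each list, and the 3 genes most like each ligand; the result of 1 gene is not reported here. A few others (Irf1, Ifng, Adam10, Adam17, Dpp4, Ly6g, Trbc2, Cd8a, Cd8b1, Ncr1, Cd79a, Cd79b, Fcmr, Clec4f, Vsig4, Marco, Zmynd15, Art3, Cadm3, Gm2673) were chosen after their values were seen. No 2 libraries of a diet agreed within sampling noise (lowest chi-square per degree of freedom 9.48). Same-numbered libraries deviated together from the mean of their diet for most but not all numbers (lowest r = -0.0935). They are also of the same set, whose mean was not subtracted, so this cannot show pairing. The closest control library was the same-numbered one for high-fat replicates 2 and 11 alone. The numbers were not taken as pairs. The labels do not say what separates the libraries beyond their number, so p-values measure the spread between these libraries.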

Additional observations from a re-analysis of the deposited data

Results flagged for a closer look

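The diet effect on Cxcl16 differed between the 2 library sets by an interaction test, with a log2 difference of 1.37 (Xist-low minus Xist-high, SE 0.31, adjusted p = 0.00493, edgeR). All 6 high-fat libraries lay above all 6 controls in the Xist-low set, and 5 of 6 did in the Xist-high set. The difference stayed past the threshold in all 24 fits that each left out 1 library (1.16 to 1.59). Macrophage markers moved the same way, at 223 to 446 CPM in control and 1206 to 2093 CPM in high-fat Xist-low libraries against 419 to 898 and 990 to 1154 CPM in the Xist-high libraries, and their part in the difference was not tested. Zmynd15, which shares 552 exonic bases with Cxcl16, averaged 5.85 CPM in control and 13.4 CPM in high-fat Xist-low libraries. In the Xist-high libraries it averaged 6.46 and 9.16 CPM, and the part of the shared bases was not tested.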

How the results depend on the processing

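Cxcl16 stayed called under all alternatives run, with log2 fold changes of 0.85 to 2.24. Within the Xist-high libraries Cxcl9 (0.54), Cxcl10 (0.89) and Cxcl14 (1.34) lost the call, Cxcl13 gained one (-2.27), and the ligands counted 1 higher and 1 lower. Within the Xist-low libraries Cxcl13 reversed to 0.72. Cxcl1 gained the call with the library set as covariate (0.82), with library totals (1.22) and with the replicate block (0.89), and Cxcl2 with DESeq2 (1.38) and library totals (1.66). The replicate block gave 5 ligands higher and 0 lower and changed no other ligand's call. With library totals the interactions were 0.89 for Cxcl9, 1.18 for Cxcl10, 3.30 for Cxcl13 and 1.48 for Cxcl14, all then past the threshold, and that of Cxcl12 reversed to 0.14. At an adjusted p of 0.05 with no fold threshold 1 ligand was lower. Cxcl2 and Cxcl13 were removed by edgeR's filterByExpr. Over all genes, the higher and lower counts of 2372 and 894 became 3827 and 226 with library totals, 525 and 162 in the Xist-high set, 3709 and 3388 at an adjusted p of 0.05 alone, with 1430 lower in the Xist-low set and 216 lower at a log2 fold change over 1. The cause of these changes was not tested.

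Leaving out 1 library gave log2 fold changes of 0.75 to 1.09 for Cxcl1, 1.19 to 1.49 for Cxcl2, 0.69 to 0.91 for Cxcl9, 1.17 to 1.41 for Cxcl10, -0.47 to -0.36 for Cxcl12, -1.91 to -0.95 for Cxcl13, 1.97 to 2.21 for Cxcl14 and 1.43 to 1.67 for Cxcl16. The interactions ran from -0.0886 to 0.47 for Cxcl1 (-0.0886, -0.053 and -0.0023 without control replicates 3, 5 and 8, and -0.024 and -0.014 without high-fat replicates 3 and 6), 0.18 to 0.79 for Cxcl2, 0.40 to 0.68 for Cxcl9, 0.59 to 0.98 for Cxcl10, -0.32 to -0.07 for Cxcl12, 1.49 to 3.24 for Cxcl13, 0.93 to 1.38 for Cxcl14 and 1.16 to 1.59 for Cxcl16. These fits counted 4 to 5 ligands higher and 0 lower, and 2137 to 2464 genes higher and 745 to 995 lower. Depth limits Cxcl2 and Cxcl13, whose libraries held few counts.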

Other observations

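The genes whose level followed each ligand most closely from library to library were sought among 13787 genes with a mean of at least 10 counts, after the mean of each diet and set had been subtracted (Pearson r of log2(CPM + 1) over 24 libraries, a description in which libraries share depth and scaling). Cxcl9 lay closest to Gbp2 (r = 0.85), an interferon-inducible GTPase, and was also close to Slc11a1 (0.80), a metal transporter of phagocytes. Cxcl16 lay closest to Olfml3 (0.89), Spp1 (0.86), which encodes osteopontin, and Rab31 (0.84). All 3 of these rose on the high-fat diet, with log2 fold changes of 2.21, 2.62 and 1.22 by edgeR's quasi-likelihood test (highest adjusted p = 3.27e-05). Cxcl14 lay closest to Islr (0.84), Ccdc3 (0.81) and Lama2 (0.80), a laminin chain, which rose by 1.17, 1.58 and 1.39.

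Cxcl13 had few counts, with 3 or fewer in 6 of 12 high-fat and 3 of 12 control libraries, which limits its partners. It lay closest to Acod1 (0.78), the itaconate-producing enzyme of activated macrophages, Irak3 (0.76), a brake on Toll-like receptor signalling, and Timd4 (0.72), a marker of resident macrophages. Acod1 and Irak3 rose on the high-fat diet (2.33 and 1.11), and Timd4 was at -0.74 (adjusted p = 0.161, edgeR). Cxcl12 lay closest to Dact2 (0.87), Cobl (0.86) and Grk3 (0.86), a kinase that desensitizes G protein-coupled receptors, none of which was called. Cxcl10 lay closest to Sh3glb2 (0.82), Smyd2 (0.82) and Amdhd2 (0.78), and Cxcl1 to Aadac (0.79), a hepatocyte lipase that fell on the high-fat diet (-0.74), Timmdc1 (0.77) and Psmg1 (0.76). Cxcl2, with its few counts, had the weakest partners, Slc52a2 (0.71), Rbm19 (0.63) and Siah1b (0.62).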
